A study of Arabidopsis thaliana with 64 samples.

Results

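The genes described here encode the plastid acetyl-CoA carboxylase (ACCase) and the plastid acyl carrier proteins of Arabidopsis thaliana. They are the 9 rows BCCP1, BCCP2, CAC2, CAC3, ACP1, ACP2, ACP3, ACP4 and ACP5 of count tables that hold 32833 genes. They were picked by name, with the response to dexamethasone (Dex) in the GR-WRI3 plants already known. Their values in that contrast are therefore given as a description and nothing is read from how many of them were called there, while tests are given for the other plants and for the mock libraries. The 64 RNA-Seq libraries came from whole Col-0 seedlings that carried 1 of 4 transcription factors fused to the glucocorticoid receptor (GR) under the constitutive 35S promoter, a fusion that Dex lets into the nucleus. The factors were CHA19, a chromatin remodeler, ENAP1, a partner of the ethylene signaling protein EIN2, LBD16, a regulator of lateral root formation, and WRI3, a relative of the oil regulator WRINKLED1 (WRI1). Each GR-TF had 4 independent T-DNA insertion lines, each line was given mock treatment or 10 μM Dex for 24 h after 5 d of growth in the dark, and each line and treatment had 2 plates of pooled seedlings as replicates. Every line carried a GR-TF, so an effect of Dex itself cannot be told apart from that of the factor.

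Plastid ACCase makes malonyl-CoA, the carbon donor of fatty acid synthesis, in the first committed step of that pathway. In the plastid of Arabidopsis the main form is a complex of separate subunits. CAC2 is the biotin carboxylase, which loads carbon dioxide onto biotin, BCCP1 and BCCP2 are alternative carriers that hold the biotin, and CAC3 is the α subunit of the carboxyltransferase, which passes the carboxyl group to acetyl-CoA. The β subunit is encoded in the plastid genome and was not analysed here. Malonyl groups are then moved to acyl carrier protein (ACP), the small protein that carries the growing chain between the enzymes of fatty acid synthase. WRI1 is known to activate many of these genes in seeds by binding the AW-box, whose letters are CNTNG, any 7 bases and CG.

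The AW-box was searched on both strands because it is the known site of the relative of WRI3, and the matches are shown to place it in the members. In the 500 bases before the coding start, a window chosen after a shorter one had been searched, 8 of the 9 genes held a match (88.9%), against 5610 of 27443 protein-coding genes (20.4%). In that shorter window, from 250 bases before to 50 bases after the gene start, 3 of the 9 held one (CAC3, ACP1 and ACP5, 33.3%), against 3261 of 27443 (11.9%). No match was found before ACP4 in either window. The match nearest to the coding start of each gene is printed 5′ to 3′ on the strand of the gene, from RefSeq assembly TAIR10.1, with the letters of the match in capitals.
BCCP1: gttgtgctCTTTGGTTTCATCGagagagaa
BCCP2: tcctacttCCTCGGTTTCATCGtccactgt
CAC2: atctgtttCGATAATCACGAGGtttccctc
CAC3: aaaaacgaCGATCTCTTCGATGctttctct
ACP1: ttcacgctCTTTGTACACTCCGccctctct
ACP2: tctcatctCTTCGTCTTCTCCGcctccttc
ACP3: tcacatctCTTTGTCTTCTCCGcctcctcc
ACP5: ttcacgctCCTTGAACAATCCGccatctct
These stretches lie at chr5:5363059-5363088 (minus strand) for BCCP1, chr5:5038918-5038947 for BCCP2, chr5:13584224-13584253 for CAC2, chr2:15917237-15917266 for CAC3, chr3:1392928-1392957 (minus) for ACP1, chr1:20389506-20389535 for ACP2, chr1:20402955-20402984 (minus) for ACP3 and chr5:9571139-9571168 for ACP5. In CAC2 and CAC3 the letters read on the opposite strand. The match began 29 bases before the coding start in BCCP2, 38 in ACP5, 57 in ACP3, 58 in ACP2, 60 in BCCP1, 68 in CAC2, 71 in ACP1 and 367 in CAC3. All of them except that of ACP5 lie downstream of the annotated gene start. In ACP5 the annotation has 0 bases between gene start and coding start, so no match in this window could lie downstream. BCCP2 and ACP5 held another match, 136 and 323 bases before their coding starts. The same window held a match in 6 of 8 genes of plastid fatty acid synthase (75%) and in 10 of 12 genes that supply acetyl-CoA in the plastid (83.3%). Since WRI1 is already known to act on many of these genes through this site, the shares are a description and not an independent result. A match of letters is not a measured binding site.

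The libraries held between 2059928 and 7968970 counts (median 5292626). There were 5 libraries that stood apart from the others of their GR-TF, with a median absolute log2 departure over genes of at least 0.441 against at most 0.33 in the rest. They were GR-CHA19 line 7 Dex replicate 1, GR-ENAP1 line 1 mock replicate 1, GR-ENAP1 line 2 Dex replicate 1, GR-LBD16 line 3 mock replicate 1 and GR-WRI3 line 8 Dex replicate 1. For some results a value without them is given as well, while others, such as summed levels, are given with them only. PORA, the protochlorophyllide reductase that accumulates in dark-grown seedlings, was detected in every library but ranged from 28.55 to 1742 CPM (counts scaled to a common library total), and LHCB1.1, a light-harvesting protein that is low in the dark, from 2.51 to 875 CPM. WRI3 transcript had 35.3 to 219 CPM in the 16 GR-WRI3 libraries and 0.198 to 2.45 CPM in the other 48. CHA19 and LBD16 were likewise above every other library in all 16 of their own, and ENAP1 in 15 of 16. No library was reassigned.

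Levels of different genes were compared as CPM per kilobase of annotated exon. CAC2 (AT5G35360, chromosome 5, 13584104 to 13588496) led with 118.5 ± 19.3 CPM per kilobase (SD, n = 64 libraries), followed by CAC3 (AT2G38040, chromosome 2, 15917032 to 15921170) with 106.6 ± 19.2. ACP1 (AT3G05020, chromosome 3, 1391632 to 1392954) had 91.2 ± 19.5, ACP4 (AT4G25050, chromosome 4, 12870006 to 12871564) 86.5 ± 29.0, ACP3 (AT1G54630, chromosome 1, 20401357 to 20403166) 74.6 ± 9.78 and ACP2 (AT1G54580, chromosome 1, 20389347 to 20391147) 52.6 ± 12.3. The biotin carriers were the lowest of the 8, with 45.1 ± 10.9 for BCCP1 (AT5G16390, chromosome 5, 5360789 to 5363297) and 14.7 ± 5.51 for BCCP2 (AT5G15530, chromosome 5, 5038563 to 5040840). BCCP1 was above BCCP2 in 64 of 64 libraries and ACP3 above ACP2 in 61. The orders of ACP1 over ACP4 and of ACP4 over ACP3 held in only 40 and 38 of 64. Those of CAC2 over CAC3, CAC3 over ACP1 and ACP2 over BCCP1 held in 52, 48 and 50. The means of each of these pairs differ by less than the larger of their SDs.

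ACP5 (AT5G27200, chromosome 5, 9571185 to 9572213) was at the floor. It had 8 reads in all, spread over 7 of 64 libraries with at most 2 in any of them. The 57 libraries at 0 allow a level of up to 0.396 to 1.46 CPM, the value of 3 counts, which covers counting error only. ACP5 did not pass the filter on low counts in any GR-TF, so counts over members below are out of the 8 that did. In addition, 148 bases of it overlap AT5G27210.

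BCCP2 had the largest log2 fold change of the 8 genes between Dex and mock in GR-WRI3. Its mock libraries had 23.8 and 29.7 CPM in line 8, 22.9 and 29.65 in line 10, 10.6 and 13.8 in line 17, and 14.3 and 16.6 in line 21. Its Dex libraries had 49.99 and 50.25 CPM in line 8, 32.4 and 42.2 in line 10, 23.5 and 27.3 in line 17, and 27.45 and 32.4 in line 21. Both Dex libraries were above both mock libraries in each of the 4 lines. Over all lines the groups overlapped, because mock libraries of lines 8 and 10 lay as high as Dex libraries of lines 17 and 21. The log2 fold change averaged over the lines was 0.86 (SE 0.10), or 1.81-fold. BCCP2 and ACP2 were 2 of the 5 genes called in this contrast at an adjusted p under 0.05 (edgeR, 0.0273% of 18311 tested), which is among the values known when the genes were picked. Those calls rest on single libraries, since without line 17 Dex replicate 1, line 17 mock replicate 1 or line 8 mock replicate 2 only 1 gene was called and no member, and without line 8 Dex replicate 1, which stands apart, 12 genes and 3 members were.

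Reads near the ends of BCCP2 may be shared, since the libraries did not keep strand and AT5G15520 overlaps its first 192 bases and AT5G15533 its last 180. AT5G15533 had 0 counts in every library. AT5G15520 had a mean of 4.32 CPM with mock treatment and 6.78 CPM with Dex in GR-WRI3, a log2 fold change of 0.62 (SE 0.23). Its highest Dex value, 13.3 CPM, was in line 8 replicate 1, which stands apart, and no fold change without that library is given. The part of AT5G15520 in the BCCP2 values was not tested.

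BCCP1, the more abundant biotin carrier, had a smaller fold change. Its 8 mock libraries in GR-WRI3 ran from 43.6 to 69.9 CPM with a median of 60.2, and its 8 Dex libraries from 43.1 to 96.8 CPM with a median of 70.2. The groups overlapped widely, and in line 21 the lowest Dex library (43.1 CPM) lay below both mock libraries (43.6 and 56.5 CPM). The log2 fold change was 0.26 (SE 0.099), and the means of Dex were above those of mock in 4 of 4 lines. In line 8 the log2 ratio of mean CPM was 0.33, and 0.16 without Dex replicate 1, which stands apart.

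The mix of the biotin carriers was also computed. BCCP2 made up 34.55% ± 4.28 of BCCP1 and BCCP2 reads per kilobase in the 8 GR-WRI3 Dex libraries (30.1 to 40.9%) and 25.9% ± 4.88 in the 8 mock libraries (19.1 to 31.7%). The share was higher with Dex by 13.1 percentage points in line 21, 10.4 in line 17, 9.05 in line 8 and 2.14 in line 10. In the other GR-TFs the mean share was between 21.25% and 23.7% in every treatment. The highest share in any of those 48 libraries was 28.05%, which is below all 8 GR-WRI3 Dex libraries. Since GR-WRI3 Dex is the contrast behind the choice of genes, this is a description.

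**Figure D1:**
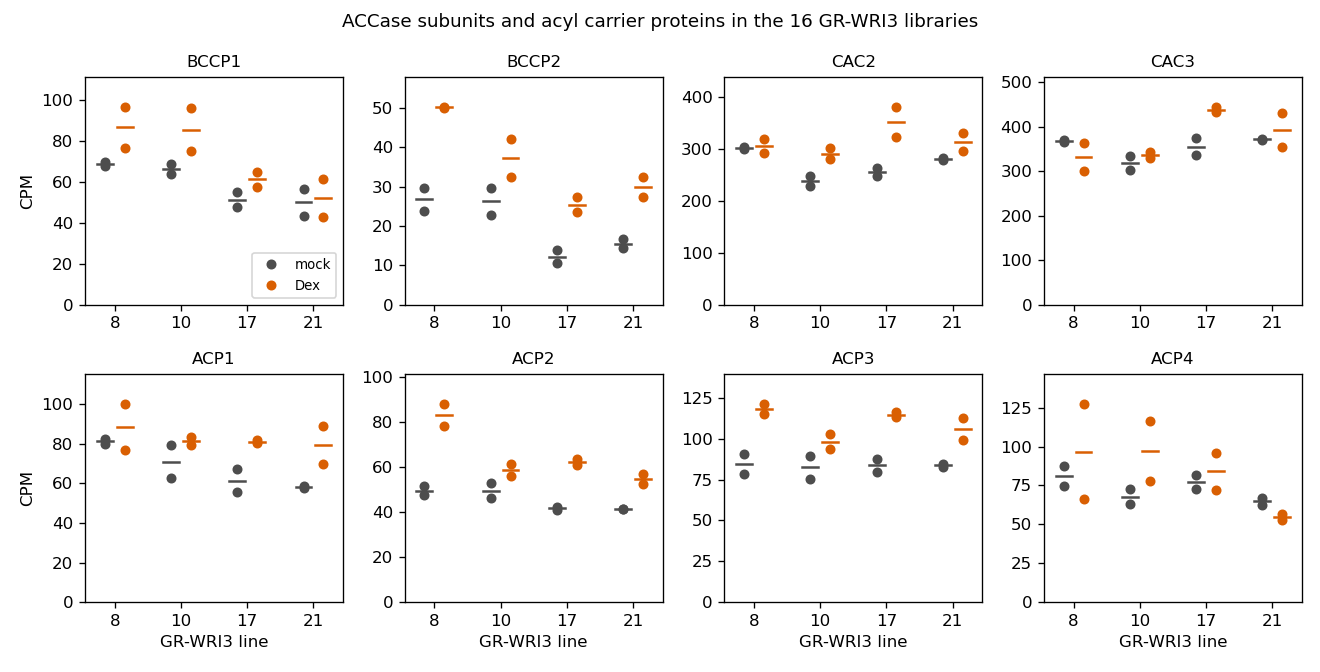
Level in CPM of the 8 genes that passed the filter in the 16 GR-WRI3 libraries, by insertion line (x axis), with grey points for mock and orange points for Dex libraries and a bar at the mean of each pair. BCCP2, ACP2 and ACP3 have both Dex points above both mock points in all 4 lines, while CAC3 and ACP4 have Dex points on either side of mock.

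**Figure D2:**
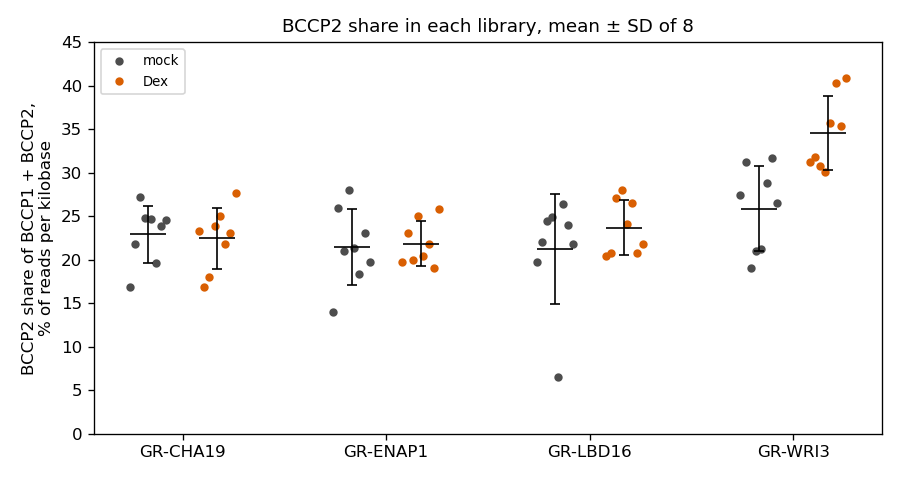
BCCP2 as a percentage of BCCP1 plus BCCP2 reads per kilobase (y axis) in each library, by GR-TF and treatment, with the mean and SD of 8 libraries in black. The GR-WRI3 Dex libraries lie between 30.1 and 40.9%, and the lowest point of all, 6.54%, is GR-LBD16 line 3 mock replicate 1, a library that stands apart.

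Of the catalytic subunits, CAC2 was somewhat higher with Dex and CAC3 was level between treatments. CAC2, the biotin carboxylase, had 227.9 to 303.1 CPM (median 270.9) in the GR-WRI3 mock libraries and 279.8 to 380.6 CPM (median 310.2) in the Dex libraries. Its log2 fold change was 0.23 (SE 0.071), with both Dex libraries above both mock libraries in 3 of 4 lines, but the overall ranges overlapped. CAC3, the carboxyltransferase α subunit, had 302.6 to 375.4 CPM (median 367.3) with mock treatment and 299.8 to 444.8 CPM (median 359.3) with Dex. Its median was lower with Dex and its log2 fold change was 0.08 (SE 0.078), about the size of its SE. Summed over BCCP1, BCCP2, CAC2 and CAC3, the level was 798 ± 61.7 CPM with Dex and 702 ± 48.2 CPM with mock treatment (SD, n = 8 each).

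Among the acyl carrier proteins the pair ACP2 and ACP3, which lie near each other on chromosome 1, had the largest log2 fold changes in GR-WRI3. ACP2 had 41.1 to 52.9 CPM (median 44.3) in the 8 mock libraries and 52.4 to 88.1 CPM (median 61.1) in the 8 Dex libraries. Within each line both Dex libraries were above both mock libraries, and over all lines only the lowest Dex library (52.4 CPM in line 21) fell below the highest mock library (52.9 CPM in line 10). The log2 fold change of ACP2 was 0.49 (SE 0.064), or 1.41-fold. ACP3 had 75.6 to 91.0 CPM (median 83.8) with mock treatment and 93.5 to 121.3 CPM (median 113.1) with Dex, so that all 8 Dex libraries were above all 8 mock libraries, as in 6 of 14814 genes of at least 5 CPM on average (0.0405%). The log2 fold change of ACP3 was 0.39 (SE 0.068), or 1.31-fold. No stretch of 100 bases is shared between the exons of any of the 9 genes, so reads of that length cannot match 2 members exactly. Reads were trimmed, and matches of shorter reads or matches with mismatches were not tested.

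ACP1 had 55.4 to 82.5 CPM (median 65.1) in the mock libraries and 69.9 to 100.1 CPM (median 81.2) in the Dex libraries of GR-WRI3. Its log2 fold change was 0.30 (SE 0.085), and in line 8 the Dex libraries (77.1 and 100.1 CPM) lay on either side of the mock libraries. ACP4, which is known as the main acyl carrier protein of leaves, had 62.7 to 87.4 CPM (median 72.6) with mock treatment and 52.65 to 127.3 CPM (median 75.1) with Dex. Its log2 fold change was 0.16 (SE 0.13), and its highest Dex value was in line 8 replicate 1, the GR-WRI3 library that stands apart. Without that library it was 0.02. Those of BCCP2, ACP2 and ACP3 were then 0.86, 0.47 and 0.40.

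Over the 8 genes the median log2 fold change in GR-WRI3 was 0.28, against 0.0085 over all 18311 genes tested. The mean of Dex was above that of mock in 4 of 4 lines for 6 of the 8 (all but CAC3 and ACP4), a pattern that 11.6% of all genes tested showed. Both Dex libraries were above both mock libraries in 4 of 4 lines for 3 of the 8 (BCCP2, ACP2 and ACP3), as for 0.311% of 14814 genes of at least 5 CPM. Of the 32 combinations of gene and line, the Dex mean was higher in 30, and the exceptions were CAC3 in line 8 and ACP4 in line 21. Without line 8 Dex replicate 1, CAC2 and ACP4 were lower with Dex in line 8 too, with log2 ratios of mean CPM of −0.05 and −0.29. Summed over the ACPs, the level was 340.1 ± 41.4 CPM with Dex and 270.0 ± 21.9 CPM with mock treatment (SD, n = 8 each).

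The lines of GR-WRI3 did not have the same amount of the WRI3 transcript, which had a log2 fold change of −0.11 with Dex. Line 10 had a mean of 40.3 CPM (SD 5.75), line 8 had 111 CPM (SD 16.3), line 21 had 120 CPM (SD 16.9) and line 17 had 195 CPM (SD 24.2, n = 4 libraries each). The means of lines 8 and 21 differed by less than either of their SDs, so the order of those lines is not firm. The log2 fold change of BCCP2 with Dex was 0.53 in line 10, 0.91 in line 8, 0.96 in line 21 and 1.04 in line 17, in the order of the WRI3 transcript. For ACP2 the values were 0.24, 0.75, 0.41 and 0.57 in the same order of lines, and for ACP3 they were 0.26, 0.48, 0.35 and 0.45. Line 10 was the lowest of the 4 for BCCP2, ACP2 and ACP3, but the highest for BCCP1 (0.37) and ACP4 (0.52) and in between for CAC2, CAC3 and ACP1, so the order of the WRI3 transcript was not shared by the 8 genes. In line 8 without Dex replicate 1, log2 ratios of mean CPM were 0.91 for BCCP2, 0.66 for ACP2 and 0.52 for ACP3. With 4 lines these orders are a description. Over all genes, the line by treatment term of edgeR called 0 of 18311 in GR-WRI3 (0%, with 2.65% at an unadjusted p under 0.05).

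**Figure D3:**
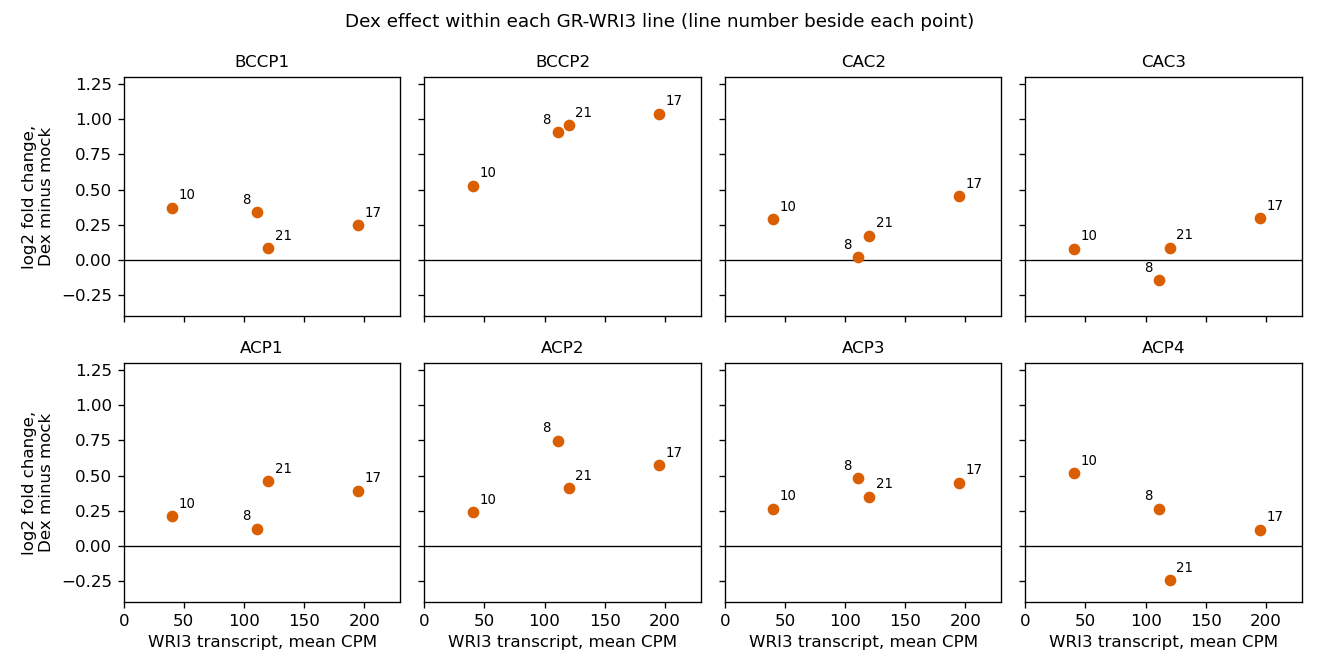
Log2 fold change between Dex and mock within each GR-WRI3 line (y axis) against the mean WRI3 transcript level of that line in CPM (x axis), 1 panel for each gene, with the line number beside each point. Line 10, with the least WRI3 transcript, is the lowest point for BCCP2, ACP2 and ACP3 and the highest for BCCP1 and ACP4.

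The dark seedling markers had higher means with Dex in GR-WRI3 as well, with ranges that overlapped. PORA had a mean of 173 CPM with mock treatment (33.7 to 456) and 479 CPM with Dex (28.55 to 1442). Both Dex libraries were above both mock libraries in 1 of 4 lines for PORA and 2 of 4 for PORB, and below in 0 for either. For the root marker PYK10 they were above in 2 lines and below in 1. PORB had a log2 fold change of 1.01 (SE 0.26), and PYK10 one of 0.46 (SE 0.17). The light-harvesting genes LHCB1.1 and LHCB2.1 had 0.10 (SE 0.11) and −0.03 (SE 0.12). The seed markers SESA2 and OLEO1 had 0.21 (SE 0.53) and 0.13 (SE 0.32). The ratio of Dex to mock for PORA was 5.11 in line 10, 2.31 in line 21, 1.88 in line 8 and 1.46 in line 17. Without the library that stands apart it was 0.741 in line 8, and mean PORA with Dex was 370 CPM over 7 libraries. Line 10, with the largest PORA ratio, had the smallest fold change of BCCP2 among the lines but the largest of BCCP1 and ACP4. In GR-CHA19 the PORA ratio was 18.0 in line 7, 7.30 in line 8, 6.58 in line 9 and 0.82 in line 5, where BCCP2 had log2 fold changes of 0.23, 0.36, 0.70 and −0.05. For PORA both Dex libraries were above both mock libraries in 1 of those 4 lines and below in 0. Without the library that stands apart, line 7 had a PORA ratio of 1.01 and a BCCP2 log2 ratio of mean CPM of 0.00877. The part of these markers in the GR-WRI3 values was not tested. In RNA from whole seedlings, a difference in the share of a cell type and one in the RNA per cell cannot be told apart.

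**Figure D4:**
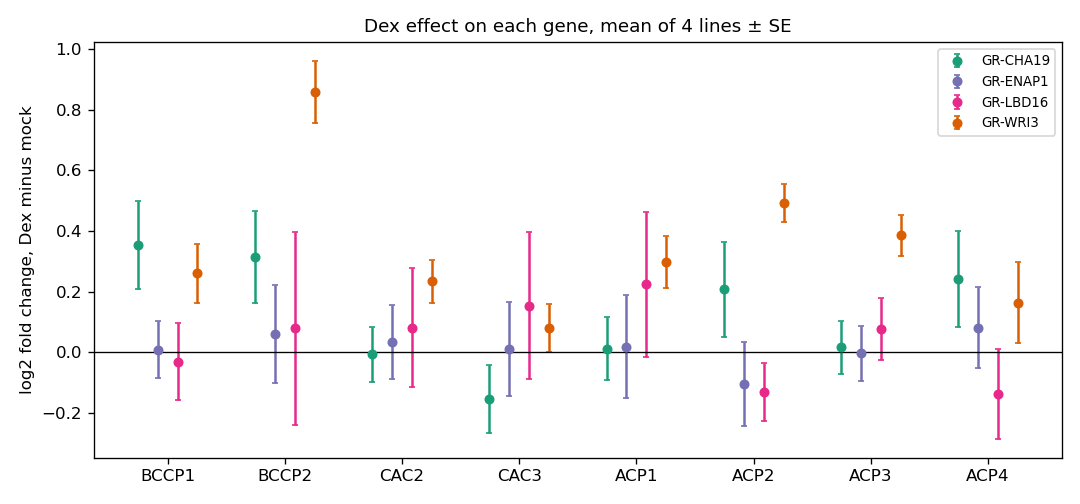
Log2 fold change between Dex and mock (y axis, mean of 4 lines with its SE) of each gene in the 4 GR-TFs, from a separate edgeR fit for each. In GR-WRI3 all 8 points are above 0, from 0.08 for CAC3 to 0.86 for BCCP2, while the points of the other GR-TFs lie between −0.15 and 0.35.

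In the other GR-TFs none of the 8 genes was called. In GR-CHA19 (18272 genes tested), GR-ENAP1 (18506) and GR-LBD16 (18706) no gene had an adjusted p under 0.05 in edgeR (0% in each), and DESeq2 called none of the 8 either, while the negative binomial regression of the study, glm.nb, called 3 of the 8 in GR-CHA19 among 5318 genes. At an unadjusted p under 0.05 there was 1 of the 8 in GR-CHA19, BCCP1, and none in the other GR-TFs, where such genes made up 14% (GR-CHA19), 1.81% (GR-ENAP1) and 6.31% (GR-LBD16) of those tested. The line by treatment term called none of the 8 in these GR-TFs either (0% of all genes in each, with 2.31%, 5.12% and 2.38% at an unadjusted p under 0.05). BCCP1 had 41.25 to 60.35 CPM (median 54.4) in the GR-CHA19 mock libraries and 45.3 to 104.1 CPM (median 65.9) in the Dex libraries, with a log2 fold change of 0.35 (SE 0.145, edgeR adjusted p = 0.347). Its highest value was in line 7 replicate 1, a library that stands apart, and without it the log2 fold change was 0.22.

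BCCP2 in GR-CHA19 ran from 9.77 to 18.0 CPM (median 14.96) with mock treatment and from 10.1 to 30.6 CPM (median 19.0) with Dex, a log2 fold change of 0.31 (SE 0.152, edgeR adjusted p = 0.36). Without the library that stands apart it was 0.25. ACP2 and ACP4 depended on that library, with log2 fold changes of 0.21 and 0.24 with it and 0.01 and 0.03 without it. For the enzymes of fatty acid synthase the median was 0.35 on the log2 scale in both GR-CHA19 and GR-WRI3, and the difference between those GR-TFs was not tested. The SE of each of these genes was larger in GR-CHA19 (0.0849 to 0.293) than in GR-WRI3 (0.0722 to 0.203). The GR-CHA19 median includes the library that stands apart, and no median without it is given.

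GR-ENAP1 and GR-LBD16 gave values close to 0 with wide errors. In GR-ENAP1 the 8 log2 fold changes lay between −0.10 (ACP2) and 0.08 (ACP4), with SEs from 0.090 to 0.17 and an edgeR adjusted p of 1 each. In GR-LBD16 they lay between −0.14 (ACP4) and 0.22 (ACP1), with SEs from 0.0954 to 0.319. The widest error was that of BCCP2, whose mock libraries in GR-LBD16 ran from 3.11 to 31.85 CPM because line 3 replicate 1, a library that stands apart, had 3.11 CPM beside 31.5 CPM in its partner. Without that library BCCP2 had a log2 fold change of −0.14 in place of 0.08, and CAC2 and CAC3 had −0.07 and −0.02 in place of 0.08 and 0.15. None passed the test in either form.

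The Dex effects of GR-CHA19, GR-ENAP1 and GR-LBD16 were also compared with each other in a joint fit of 48 libraries, and the GR-TF by treatment term called none of the 8 genes and 0 of 19427 in all (0%, with 12.2% at an unadjusted p under 0.05). The smallest p among the 8 was 0.0907 for BCCP1 (edgeR adjusted p = 0.438). Counted by line, the mean of Dex was above that of mock in 19 of 32 combinations of gene and line in GR-CHA19, 22 in GR-ENAP1 and 14 in GR-LBD16. None of the 8 genes had a higher mean with Dex in all 4 lines of any of these GR-TFs, where 12.5%, 3.17% and 11% of all genes tested did.

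Without Dex, some of the genes differed between the GR-TFs. The mock counts of each line were summed, so that the insertion line was the replicate (n = 4 lines per GR-TF), and edgeR called 3 of the 8 genes, BCCP1 (adjusted p = 0.00217), ACP4 (adjusted p = 0.005) and ACP2 (adjusted p = 0.0155). Of 19303 genes tested, 38.4% were called, so 3 of 8 is near the share of all genes. BCCP1 had 41.25 to 60.35 CPM (median 54.4) in the 8 GR-CHA19 mock libraries, 70.8 to 92.8 (median 86.95) in GR-ENAP1, 47.0 to 101.5 (median 93.0) in GR-LBD16 and 43.6 to 69.9 (median 60.2) in GR-WRI3. The GR-CHA19 libraries were all below those of GR-ENAP1, while those of GR-LBD16 reached as low as GR-CHA19 only in line 3 replicate 1, which stands apart.

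ACP4 followed the same order, with medians of 65.7 CPM in GR-CHA19, 72.6 in GR-WRI3, 119.7 in GR-ENAP1 and 134 in GR-LBD16. ACP2 had medians of 42.9, 44.3, 49.6 and 64.2 CPM in that order of GR-TFs. Against the mean of the other 3 GR-TFs, GR-CHA19 was lower by log2 differences of −0.51 (SE 0.11) for BCCP1, −0.38 (SE 0.119) for ACP2 and −0.53 (SE 0.162) for ACP4, with edgeR adjusted p-values of 0.0157, 0.0409 and 0.0383 (8.5% of all genes were called lower there). These calls depended on single lines, as none of the 8 was called without GR-CHA19 line 5, 7 or 8, and 1 without GR-ENAP1 line 2, GR-LBD16 line 12, GR-WRI3 line 10 or GR-WRI3 line 8. GR-LBD16 was higher by 0.43 (SE 0.104), 0.38 (SE 0.113) and 0.60 (SE 0.152), with edgeR adjusted p-values of 0.0104, 0.0195 and 0.0121 (20.7% of all genes were called higher there), and 2 to 4 of the 8 were called when any 1 line was left out. With a line left out, the genes called in either direction were 2472 to 10610 for GR-LBD16 and 107 to 5285 for GR-CHA19. For GR-ENAP1 and GR-WRI3 none of the 8 passed. Without the mock libraries that stand apart, BCCP2 (edgeR adjusted p = 0.00896) and ACP1 (adjusted p = 0.0283) were called as well, so 5 of 8, against 44.7% of 19105 genes. CAC2 and CAC3, the catalytic subunits, and ACP3 were not called in either form.

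PORA in the mock libraries had means of 63.6 CPM in GR-CHA19, 173 in GR-WRI3, 436 in GR-ENAP1 and 711 in GR-LBD16, the order of BCCP1, ACP2 and ACP4 as well (without the libraries that stand apart GR-ENAP1 had 365 CPM and GR-LBD16 had 803 CPM), and its part in those differences was not tested. The GR-TF of a library and any difference in seed lot, plate set or library batch between GR-TFs cannot be told apart. Among the lines of GR-WRI3, BCCP2 had 22.9 to 29.7 CPM in the mock libraries of lines 8 and 10 and 10.6 to 16.6 CPM in those of lines 17 and 21, without overlap. The edgeR F-test gave F = 13.7 and an unadjusted p of 0.000238, which did not pass over all genes (adjusted p = 0.229, with 0.0382% of 18311 genes called). Mean PORA there was 411 CPM in line 8 and 190 CPM in line 10, against 46.6 CPM in line 17 and 44.7 CPM in line 21.

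**Figure D5:**
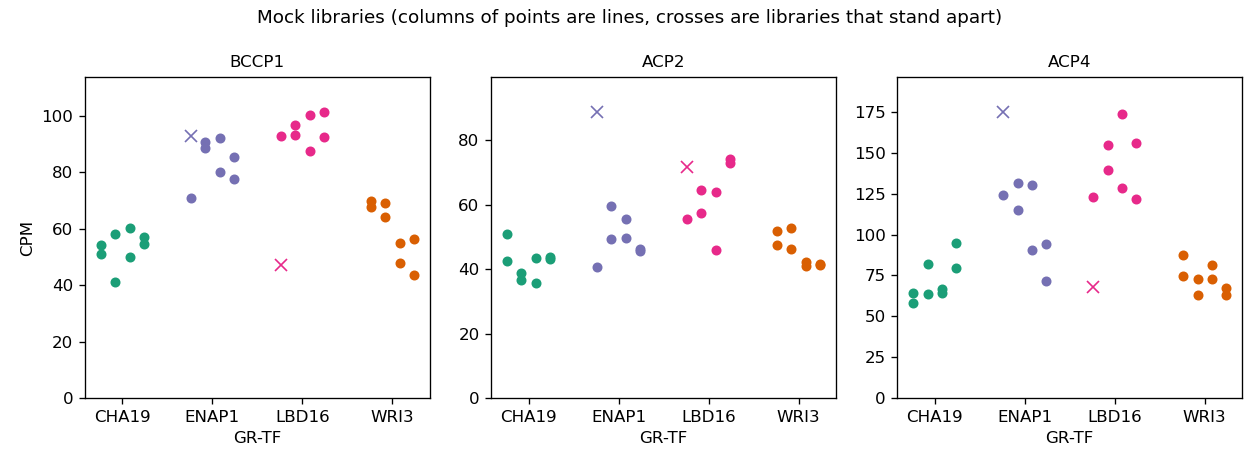
Level in CPM (y axis) of BCCP1, ACP2 and ACP4 in the mock libraries of each GR-TF (x axis), where each column of points is a line with its 2 replicates and crosses mark libraries that stand apart. GR-CHA19 is low and GR-LBD16 high in all 3 genes, and the cross of GR-LBD16 at 47.0 for BCCP1 is line 3 replicate 1.

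The single-chain carboxylases were compared as well, and ACC2 had the same order of mock medians as BCCP1. ACC2 (AT1G36180, chromosome 1, 13545965 to 13558600), a single-chain ACCase directed to the plastid, had mock medians of 5.94 CPM in GR-CHA19, 8.5 in GR-WRI3, 35.5 in GR-ENAP1 and 39.6 in GR-LBD16 (edgeR adjusted p = 0.000118 for the difference among GR-TFs). ACC1, its cytosolic neighbour upstream on the same strand, did not pass (adjusted p = 0.796). The pair are close copies, so reads may have been assigned between them in ways the files do not show. With Dex in GR-WRI3, ACC1 had a log2 fold change of −0.05 and ACC2 of 0.23.

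Other genes of the pathway were taken from lists set down by role, with earlier results of these data known, and none of them passed the adjusted threshold in GR-WRI3 in either direction. In plastid fatty acid synthase 7 of 8 genes were higher with Dex, and the median of the list on the log2 scale was 0.35 against 0.0085 over all genes. They included both 3-hydroxyacyl-ACP dehydratases, AT2G22230 with 0.60 (SE 0.20) and AT5G10160 with 0.47 (SE 0.092), and the malonyl transferase AT2G30200, which moves malonyl groups onto ACP, with 0.58 (SE 0.12). The 3-ketoacyl-ACP reductase AT1G24360 had 0.39 (SE 0.072), and FAB1, the condensing enzyme of the last elongation step, had −0.08 (SE 0.086).

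Among 12 genes that supply acetyl-CoA in the plastid, 10 were higher and 2 lower, with a median of 0.19. The plastid pyruvate dehydrogenase subunits E1 β (AT1G30120), dihydrolipoamide dehydrogenase LPD2 and E1 α had 0.46 (SE 0.070), 0.45 (SE 0.10) and 0.22 (SE 0.062), while the other E1 β gene, AT2G34590, had −0.08 (SE 0.11). Of 9 partners of the carboxylase 6 were higher, with a median of 0.08. The largest value in that list was that of BIO2, biotin synthase, with 0.41 (SE 0.091). The BADC proteins, which resemble BCCP but carry no biotin and inhibit the complex, had 0.08, 0.09 and 0.06. The 3 mitochondrial acyl carrier proteins had a median of 0.18, and WRI1, WRI2 and WRI4 had −0.13, −0.07 and −0.26.

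The members did not vary as a single unit. Over 32 means of a line and treatment, each taken relative to its GR-TF, the 28 pairs of members had a median Pearson r of 0.473 on log2 CPM, with 24 above 0, and 0.393 over the 27 means that hold no library that stands apart. For the 27 means the level of each GR-TF was still taken over all its means, so the libraries that stand apart enter through it. The points share depth and libraries, and no p is given. The closest pairs were CAC2 with CAC3 (r = 0.819, or 0.753 over the 27 means), BCCP1 with BCCP2 (0.808, or 0.763) and BCCP2 with ACP1 (0.787, or 0.814, the highest over those means). CAC3 with ACP2 was the lowest (r = −0.455), while over the 27 means BCCP1 with CAC3 (−0.257) and CAC3 with ACP2 (−0.246) were the lowest.

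By the same measure, over 14806 genes, the genes most like BCCP2 were the dehydratase AT5G10160 (r = 0.881), BIO2 (0.862), the lipid transfer protein LTP5 (0.850), AT2G03550 (0.848) and SBPASE (0.845), the sedoheptulose bisphosphatase of the Calvin cycle. Those most like ACP2 were IGMT5 (0.865), an indole glucosinolate methyltransferase, and the malonyl transferase AT2G30200 (0.837). CAC2 was most like PDH-E1 ALPHA (0.844), and PDH-E1 BETA was also among its first 5 (0.802). ACP4 had the highest values, with AT2G43030 (0.941) and AT4G02530 (0.936). The means include those of GR-WRI3 with Dex, so these values are not independent of the contrast above. They also include the means that hold a library that stands apart, and no values without those means are given for these genes.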

How the data were processed

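The authors trimmed reads with Trim Galore 0.6.0, checked them with FastQC 0.11.7, mapped them to TAIR10 with STAR 2.7.0f and deposited raw counts per gene for 2 sequencing runs of each of 64 libraries, with no normalization. How reads of overlapping genes were counted is not given in the sources used here. Runs were summed here. The libraries of a GR-TF were modelled on their own with the robust quasi-likelihood method of edgeR 4.0.16 in R 4.3.3, after TMM scaling and removal of low-count genes (filterByExpr). The model held 1 coefficient per line and treatment, the effect of Dex was its mean over 4 lines, and p-values were adjusted over all genes tested by the Benjamini-Hochberg method at 0.05. CPM used TMM library sizes. Replicates were separate plates of pooled seedlings.

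The files name genes without positions, so positions, sequences and names came from RefSeq TAIR10.1. The members and lists were chosen with earlier results of these data known. The named genes were the 9 members, the induced factors and WRI family, and the other genes of the pathway by list, and the genes most like BCCP2, ACP2, CAC2 and ACP4. The alternatives were DESeq2 1.42.0, glm.nb of MASS 7.3-60.0.1, other scaling, no filter, other designs, and each library or line left out. The fit was also run on simulated data with known changes. Those data held no line by treatment effect and no library that stands apart. Python 3.11.15, pandas 2.3.3, numpy 2.4.6 and matplotlib 3.10.9 were used for tables and figures.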

Additional observations from a re-analysis of the deposited data

Results flagged for a closer look

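In 64 groups of 8 libraries (8 genes, 4 GR-TFs and 2 treatments), the highest or lowest library was compared with the rest of its group, and 13 lay far from the others by Dixon's criterion, a gap that chance gives in about 1 in 20 groups. Of the 13, 11 were in libraries that stand apart as a whole. In GR-LBD16 with mock treatment, line 3 replicate 1 was the lowest of 8 for BCCP1 (47.0 CPM), BCCP2 (3.11 CPM), CAC2 (98.8 CPM), CAC3 (83.98 CPM), ACP1 (16.6 CPM), ACP3 (60.9 CPM) and ACP4 (67.7 CPM), but not for ACP2, where it had 71.85 CPM in a range of 46.1 to 74.1 CPM. PORA had 72.4 CPM in that library and 684 CPM in its partner. In GR-ENAP1 with mock treatment, line 1 replicate 1 was the lowest for CAC3 (180.9 CPM) and ACP1 (33.4 CPM). In GR-CHA19 with Dex, line 7 replicate 1 was the highest for ACP2 (83.0 CPM) and ACP4 (184.7 CPM). The remaining flagged values were in GR-CHA19 with mock treatment, where BCCP2 in line 5 replicate 1 was the lowest with 9.77 CPM and CAC2 in line 9 replicate 2 was the highest with 305.5 CPM.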

How the results depend on the processing

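The log2 fold changes of the 8 genes in GR-WRI3 kept their sign under every alternative run, with BCCP2 between 0.81 and 0.91 and ACP2 between 0.47 and 0.52 when a library was left out; glm.nb could not be fitted for ACP2 there. Counts of calls moved more. In GR-WRI3 the genes called were 5 in the fit reported and 1599 with no filter, 23 with DESeq2, 8 with an additive design, 3 with the replicate block, 2 with all 64 libraries in one fit, 0 with line sums and 4483 with glm.nb, and the members among them were 1 with the replicate block, 0 with all 64 libraries, 0 with line sums and 5 with glm.nb. Leaving out a library gave 1 to 4816 genes and 0 to 6 members. With no filter the line by treatment term of GR-WRI3 called 596 genes, and its mock level among lines 825 genes and 1 member, BCCP2. With a library left out these terms called 0 to 1025 and 3 to 27 genes.

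The replicate numbers did not pair the samples, since correlations of same-numbered deviations over 16 lines ran from −0.389 to 0.472 with a median of 0.00487. In GR-CHA19 DESeq2 called 1 gene and glm.nb 5318, with 3 members. In GR-ENAP1 glm.nb called 204. In GR-LBD16 DESeq2 called 1, the fit of all 64 libraries 2 and glm.nb 2300. Leaving out a library gave 0 to 8691 genes and 0 to 4 members in GR-CHA19 and 0 to 8656 genes and 0 to 5 members in GR-LBD16. The line by treatment term then called 0 to 6785 genes and 0 to 4 members in GR-CHA19, 0 to 6712 and 0 to 4 in GR-ENAP1, and 0 to 9270 and 0 to 6 in GR-LBD16. The mock level among lines called 0 to 6 genes in GR-CHA19, 0 to 8000 with 0 to 4 members in GR-ENAP1, and 3 to 11030 with 0 to 7 members in GR-LBD16. The highest of these counts, other than the 6 of GR-CHA19 and the 27 of GR-WRI3 for mock levels, came from leaving out the partner of a library that stands apart (GR-WRI3 line 8 Dex replicate 2, GR-CHA19 line 7 Dex replicate 2, GR-ENAP1 line 1 mock replicate 2 or GR-LBD16 line 3 mock replicate 2), which is then fitted exactly by its own mean, and the lone sample is assumed to vary like the others. With both such libraries left out the mock level among lines of GR-ENAP1 called 9 genes.

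Values near 0 changed sign. In GR-CHA19 CAC2 was 0.052 with library size alone, and with a library left out CAC2 ran from −0.0497 to 0.0314, ACP1 from −0.0557 to 0.0618 and ACP3 from −0.0507 to 0.0549. In GR-ENAP1 BCCP1 was −0.0122 with library size alone, −0.00657 with line sums and −0.000546 with glm.nb. With both libraries that stand apart left out there (chosen after seeing the data), CAC2 was −0.0231, CAC3 −0.0566, ACP1 −0.00263, ACP2 0.0644 and ACP3 0.0379. With a library left out the ranges in GR-ENAP1 were −0.0374 to 0.0535 for BCCP1, −0.0377 to 0.16 for BCCP2, −0.0351 to 0.12 for CAC2, −0.10 to 0.17 for CAC3, −0.11 to 0.18 for ACP1, −0.21 to 0.0559 for ACP2, −0.0534 to 0.0375 for ACP3 and −0.0101 to 0.16 for ACP4, and in GR-LBD16 −0.14 to 0.12 for BCCP1, −0.14 to 0.70 for BCCP2, −0.0701 to 0.34 for CAC2 and −0.023 to 0.50 for CAC3.

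For mock levels, leaving out the libraries that stand apart (chosen after seeing the data) called 5 members among GR-TFs, 5 for GR-CHA19, 5 for GR-LBD16 and 2 for GR-WRI3 against the other 3, and 32 mock libraries as replicates called 1 for GR-ENAP1 and 2 for GR-WRI3. Over all genes, the alternatives that kept every line called 2426 to 5632 for GR-CHA19 and 6814 to 9511 for GR-LBD16. For GR-ENAP1 they called 51 to 843 genes and for GR-WRI3 14 to 1903. With a line left out the members called were 0 to 4 for GR-CHA19 (107 to 5285 genes in all), 0 to 2 for GR-ENAP1 (22 to 1856) and 0 to 1 for GR-WRI3 (2 to 1235). The cause of these changes was not tested. At these depths ACP5 could not be measured.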
